A study of Arabidopsis thaliana with 8 samples.

Results

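Gain and loss of NGATHA function were compared directly in carpels of Arabidopsis thaliana, with the 3 libraries labelled 35S:NGA set against the 3 labelled nga. These 6 of the 8 libraries were chosen by their labels alone, and WT, with 2 libraries, stood outside the fit as a reference level. The plants were of the Columbia ecotype and grew on soil in long days. Carpels of floral stages 8 to 13 were picked by hand, with 15 inflorescences given for each sample. The nga genotype label names all 4 NGATHA genes, without alleles, and 35S:NGA is labelled as overexpression, the 35S promoter being a constitutive one of viral origin. The labels do not say which NGATHA gene is driven, how many transgenic lines were used, or whether replicates came from separate plants, and the p-values therefore reflect the scatter among these libraries, part of which may be technical.

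NGATHA genes encode B3-domain transcription factors that act redundantly in forming the style and stigma, the top of the pistil, which catches pollen and lets pollen tubes in. When all of them are lost, the style and stigma do not form, and when one is overexpressed, style-like features spread. They are known to act beside SHI/STY zinc-finger proteins and HECATE basic helix-loop-helix (bHLH) proteins, and to affect local auxin synthesis. Because whole carpels were sampled, fewer cells of a type and less RNA per cell cannot be told apart in any of the values below.

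The deposited values are RPKM, read numbers divided by gene length and by the library's mapped total, and they were analysed as log2(RPKM + 1). Differences below are 35S:NGA minus nga on that scale with their standard errors, and on that scale the change of a weakly expressed gene comes out too small. Of 27197 loci, 17666 reached 1 RPKM in at least 2 of the 6 libraries and were tested with limma, with Benjamini-Hochberg adjustment over all of them and n = 3 in each group. Calls below are genes with an adjusted p under 0.05. Mapped reads, recovered from the smallest steps in the values, ran from 23.1 M to 38.3 M over all 8 libraries. Lane numbers in the file headers showed that nga 1 shared lane 6 with nga 2, that 35S:NGA 1 shared lane 7 with 35S:NGA 2, and that lane 8 held nga 3 together with 35S:NGA 3. Lane and genotype therefore cannot be told apart outside the lane 8 pair, and the difference within that pair is given for the genes described most fully. WT 1 and WT 2 were also in lane 6, so WT shared a lane with nga 1 and nga 2 and with no 35S:NGA library. In a principal component analysis of the 6 libraries, component 1 (51.6% of the variance) separated the groups, with nga at -32.7, -53.7 and -11.8 for replicates 1, 2 and 3, and 35S:NGA at 20.8, 43.3 and 34.1. On that component nga 3 was the nga library nearest to 35S:NGA. Component 2 (20.3%) set the lane 8 libraries nga 3 (-40.1) and 35S:NGA 3 (-18.2) apart from the other 4, which lay between 3.00 and 20.3.

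The targeted genes were examined first. NGA3 (AT1G01030, chromosome 1, 11649 to 13714 of TAIR10.1) measured 2.56, 2.65 and 2.97 RPKM in nga replicates 1, 2 and 3, against 102, 120 and 166 RPKM in the 35S:NGA replicates, and WT had 5.47 and 4.81 RPKM. The groups did not come near each other, and only 35S:NGA lay far above WT. The difference was 5.10 ± 0.19 (limma, adjusted p = 8.84e-05) and 5.40 in the lane 8 pair. NGA4 (AT4G01500, chromosome 4, 639247 to 640976) measured 0.131, 0.123 and 0.248 RPKM in nga, against 4.15, 4.56 and 3.68 RPKM in 35S:NGA. Here it was nga that stood apart, since WT, at 3.97 and 3.83 RPKM, lay among the 35S:NGA values. Its difference was 2.13 ± 0.16 (adjusted p = 0.00129) and 1.91 in the lane 8 pair. Both genes were called in every fit that left out 1 library. NGA1 had 21.2, 23.7 and 25.6 RPKM in nga against 15.6, 21.4 and 12.9 in 35S:NGA (adjusted p = 0.202), and its groups overlapped. NGA2 had 9.72, 7.73 and 14.9 RPKM in nga against 8.88, 7.47 and 5.78 in 35S:NGA (adjusted p = 0.332), also with overlap. Neither was lower in nga than in 35S:NGA, and WT had 23.5 and 23.9 RPKM of NGA1, so these transcript levels do not check the labelled loss of those loci.

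**Figure D1:**
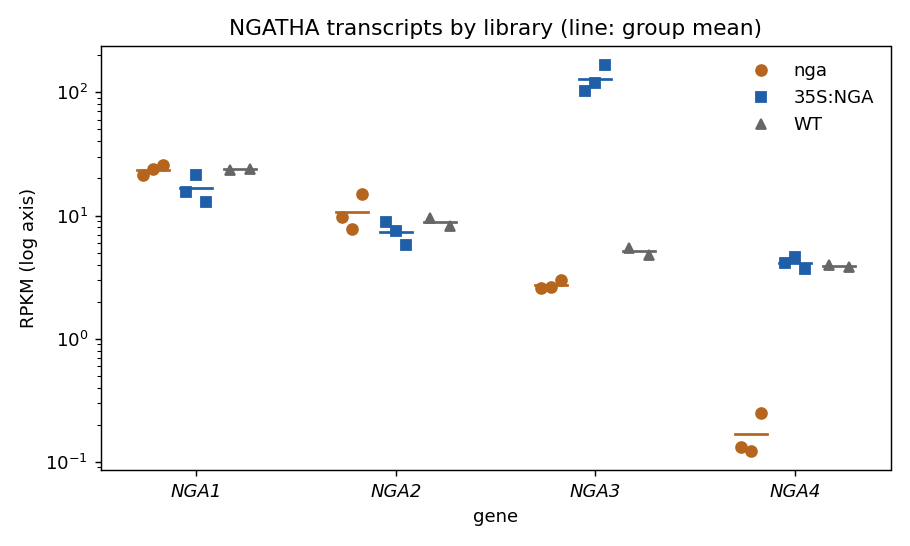
RPKM of the 4 NGATHA genes on a log axis, with a point for each library of nga, 35S:NGA and WT and a line at each group's mean. NGA3 lies at 102 to 166 RPKM in 35S:NGA against 2.56 to 2.97 in nga, NGA4 is low in nga alone, and the nga and 35S:NGA points of NGA1 and NGA2 overlap.

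Across the transcriptome, 576 genes were called, 3.26% of those tested. Of these, 428 (2.42%) were higher in 35S:NGA and 148 (0.838%) were lower, so 74.3% of calls were rises. The rises were also the larger changes. Of the genes tested, 339 (1.92%) were called with a rise of at least 2-fold and 77 (0.436%) with such a fall, and 95 rises and 10 falls reached 4-fold, while the median difference over all genes tested was 0.00. At an unadjusted p under 0.05, 2038 genes (11.5%) were higher and 1687 (9.55%) lower. In 51 of the raised genes the mean was under 1 RPKM in nga and at least 5 RPKM in 35S:NGA, and in all 51 the WT mean was at least 1 RPKM. The opposite pattern, under 1 RPKM in 35S:NGA and at least 5 in nga, was found in 2 genes. The groups did not overlap in any called gene, whereas over all genes tested 13.6% were higher and 12.9% lower without overlap. Of the 428 raised genes, 110 reached 1 RPKM in only 1 of the 2 groups, as did 15 of the 148 lowered ones, and such genes could enter the test only through the group in which they were high.

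**Figure D2:**
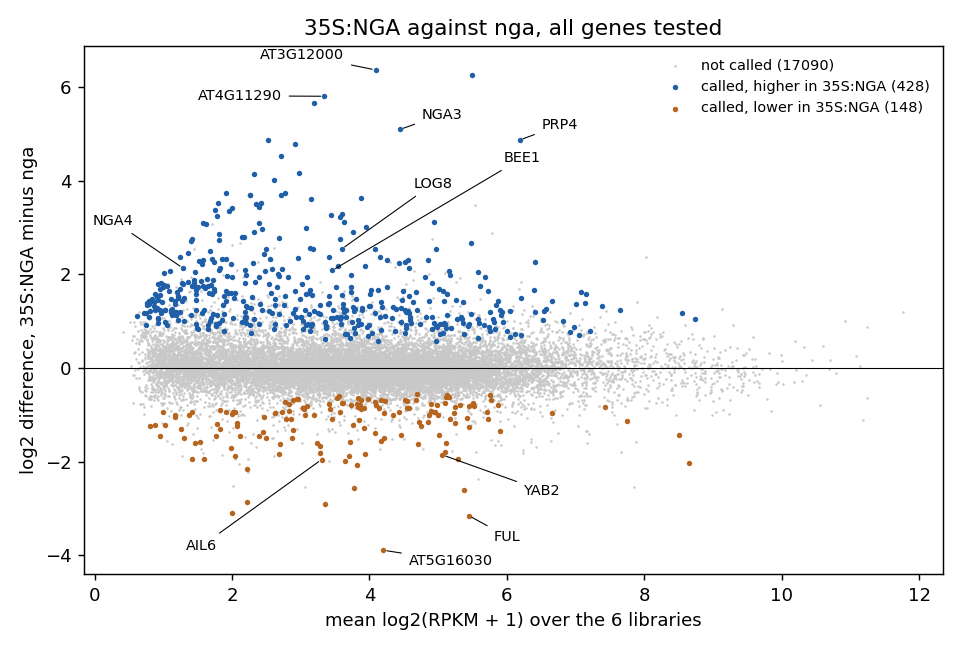
Each point is 1 of the 17666 genes tested, with its mean log2(RPKM + 1) over the 6 libraries on the x axis and its log2 difference, 35S:NGA minus nga, on the y axis. The 428 called rises reach 6.37 and the 148 called falls reach -3.89, and most of the largest rises have low to middle mean levels.

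How many genes were called depended on single libraries. Without 35S:NGA 2 the total was 163, without nga 1 it was 173, without 35S:NGA 1 it was 234, without nga 2 it was 267 and without 35S:NGA 3 it was 361. Without nga 3 it was 1203, made of 840 rises and 363 falls. In 258 of the 428 raised genes (60.3%) nga 3 was the nga library nearest to the 35S:NGA values, and in 75 of the 148 lowered genes (50.7%) likewise. Calls that held in each of the 6 fits without 1 library numbered 119 among the rises and 19 among the falls. Since no called gene had overlapping groups, the lane 8 pair has the sign of every call by construction. In that pair 277 of the 428 rises and 79 of the 148 falls were at least 2-fold. With lane as a term, which leaves only that pair to inform the contrast, 18 rises and 3 falls were called, and without the lane 8 libraries 529 and 143.

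Of the 12 largest named rises, all but NGA3 and PRP4 were of genes at or under 2.1 RPKM in every nga library. AT3G12000 (chromosome 3, 3818046 to 3819642), annotated as a putative S-locus related protein SLR1, a glycoprotein type known from the stigma of Brassica, had 0.335, 0.596 and 2.1 RPKM in nga and 193, 208 and 91.2 RPKM in 35S:NGA. WT had 154 and 112 RPKM, within the range of 35S:NGA. The difference was 6.37 ± 0.41 (limma, adjusted p = 0.000797), and 4.90 in the lane 8 pair. The lipid-transfer protein gene AT1G05450 had 0.0730, 0.205 and 0.664 RPKM in nga, 67.0, 68.2 and 58.2 in 35S:NGA, and 27.0 and 20.8 in WT. For this gene the 3 genotypes formed 3 separate levels in the order nga, WT, 35S:NGA, and the rise over nga was 5.66 ± 0.19 (adjusted p = 7.08e-05), with 5.15 in the lane 8 pair. PRP4, a proline-rich cell wall protein, was at 10.4, 8.68 and 21.2 RPKM in nga and 492, 517 and 240 RPKM in 35S:NGA, with 272 and 187 RPKM in WT. Its difference of 4.87 ± 0.40 (adjusted p = 0.00179) was 3.44 in the lane 8 pair, where nga 3 was the highest nga library and 35S:NGA 3 the lowest of its group. The carboxypeptidase-like gene scpl47 (4.79), the acid phosphatase gene AT1G04040 (4.53), the subtilase gene SBT5.4 (4.16), the DUF642 gene AT2G41800 (4.02) and the expansin gene EXPA8 (3.75) had the same layout, with every nga library under 2 RPKM and WT between 7.20 and 36.5 RPKM. All 12 of the largest named rises were called without any single library. AT2G33850, which has no description in the files and so lies outside the naming rule, was at 1.42, 3.30 and 12.2 RPKM in nga and 452, 383 and 351 in 35S:NGA, a difference of 6.26 (adjusted p = 0.00233).

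Class III peroxidases, secreted haem enzymes that oxidise wall phenolics or make reactive oxygen in the wall, rose in part. Like all lists and classes below, this class was chosen with earlier results of these data known. Of 67 peroxidases found by description, 17 were tested, 7 rose (41.2%, against 2.42% of all genes tested) and none fell, and the median difference was 1.08. The 3 strongest were AT4G11290, AT5G19880 and AT3G03670. AT4G11290 was at 0.162, 0.260 and 0.706 RPKM in nga against 67.8, 88.3 and 70.5 in 35S:NGA (5.81 ± 0.19, adjusted p = 7.08e-05), with 47.1 and 25.8 RPKM in WT. AT5G19880 did not exceed 0.0889 RPKM in any nga library and had 22.6 to 37.3 RPKM in 35S:NGA (4.86 ± 0.20). AT3G03670 ran from 0.0891 to 0.347 RPKM in nga and from 17.8 to 22.1 RPKM in 35S:NGA (4.14 ± 0.16). Their differences in the lane 8 pair were 5.39 for AT4G11290, 4.44 for AT5G19880 and 4.1 for AT3G03670. The class count was 4 without 35S:NGA 2 and 12 without nga 3. Of the 17 tested, 4 reached 1 RPKM in 1 group only, and 3 of those were among the 7.

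Other wall and surface classes differed in their share of calls. Laccases had no call in 6 tested, xyloglucan endotransglucosylase/hydrolases 1 rise and 1 fall in 16 (6.25% each), and glycosyl hydrolases and invertases 3 rises in 97 (3.09%). Of 35 tested arabinogalactan proteins, heavily glycosylated proteins of the cell surface, 8 rose (22.9%) and none fell, with a median of 0.75. AGP4, also known as JAGGER, which acts in the pistil to prevent polytubey, had 8.12, 8.62 and 6.29 RPKM in nga and 33.9, 64.9 and 32.6 in 35S:NGA (2.31 ± 0.27, adjusted p = 0.00783). WT, at 20.8 and 19.5 RPKM, lay between the groups. Among 19 expansins, which loosen walls, 4 rose (21.1%) and none fell, with EXPA8 at 3.75, EXPA10 at 2.54, EXLA1 at 2.30 and EXPA5 at 1.59. Subtilases had 5 rises among 29 tested (17.2%), and GDSL lipases 7 rises (14.9%) and 1 fall (2.13%) among 47. Lipid transfer proteins had 6 rises among 48 (12.5%), and invertase and pectin methylesterase inhibitors 6 among 49 (12.2%). Proline-rich and extensin proteins had 11 rises (11.1%) and 2 falls (2.02%) among 99. Over all genes tested 2.42% rose and 0.838% fell. In 35S:NGA alone, 1 RPKM was reached by 2 of the subtilase rises and 3 of the lipid transfer protein rises. The same held for 1 rise each of GDSL lipases, inhibitors, proline-rich proteins, and glycosyl hydrolases and invertases. The GDSL lipase gene AT5G33370 was at 2.21, 2.92 and 4.69 RPKM in nga and 45.6, 65.5 and 44.1 RPKM in 35S:NGA (3.64 ± 0.25, adjusted p = 0.000896), while WT matched 35S:NGA at 43.3 and 39.1 RPKM. The single fall among GDSL lipases, AT5G45960, had 16.5 to 22 RPKM in nga and 6.64 to 8.74 in 35S:NGA (-1.22 ± 0.16), a call lost without 35S:NGA 2. Single libraries moved these counts by more than 1.5 times. The arabinogalactan count was 1 without nga 1, nga 2 or 35S:NGA 2, 4 without 35S:NGA 1 or 35S:NGA 3, and 12 without nga 3, and none of the 6 inhibitors was called without nga 1, nga 2, 35S:NGA 1 or 35S:NGA 2. Members of these families resemble one another in sequence, and how reads shared between close copies were counted is not given in the sources used here.

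Surface lipid and phenylpropanoid genes had a smaller set of calls. In the cuticle and epidermis list, 4 of 25 tested genes rose (16.0%, against 2.42% of all genes tested), none fell, and 23 were above 0. Its CYP86A members are fatty acid hydroxylases that make cutin monomers. CYP86A2 had 2.41, 2.79 and 2.20 RPKM in nga and 12.7, 25.6 and 13.9 RPKM in 35S:NGA (2.35 ± 0.26, adjusted p = 0.00562). CYP86A4 had 0.647, 0.507 and 0.684 RPKM in nga and 5.28, 12.5 and 5.41 in 35S:NGA (2.34 ± 0.30, adjusted p = 0.0111), a call lost without nga 1. Of the 4 rises, CYP86A4 was the only one to reach 1 RPKM in 35S:NGA alone. BDG1, an extracellular protein needed for cuticle structure, differed by 1.41 and the cutin hydroxylase CYP77A6 by 1.06, and their calls were lost without nga 1, 35S:NGA 1 or 35S:NGA 2, and for CYP77A6 also without nga 2 or 35S:NGA 3. Of 21 phenylpropanoid and flavonoid genes, 2 rose (9.52%), F3'H by 2.55 ± 0.35 (adjusted p = 0.0132) and FLS1 by 1.42 ± 0.27 (adjusted p = 0.0412). For FLS1, which makes flavonols, WT had 120 and 145 RPKM, above the 37.7 to 78.1 RPKM of 35S:NGA and the 15.6 to 22.9 RPKM of nga, so neither line reached the WT level. The call of F3'H was lost without nga 1 or 35S:NGA 2, and that of FLS1 without nga 1, nga 2, 35S:NGA 2 or 35S:NGA 3.

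**Figure D3:**
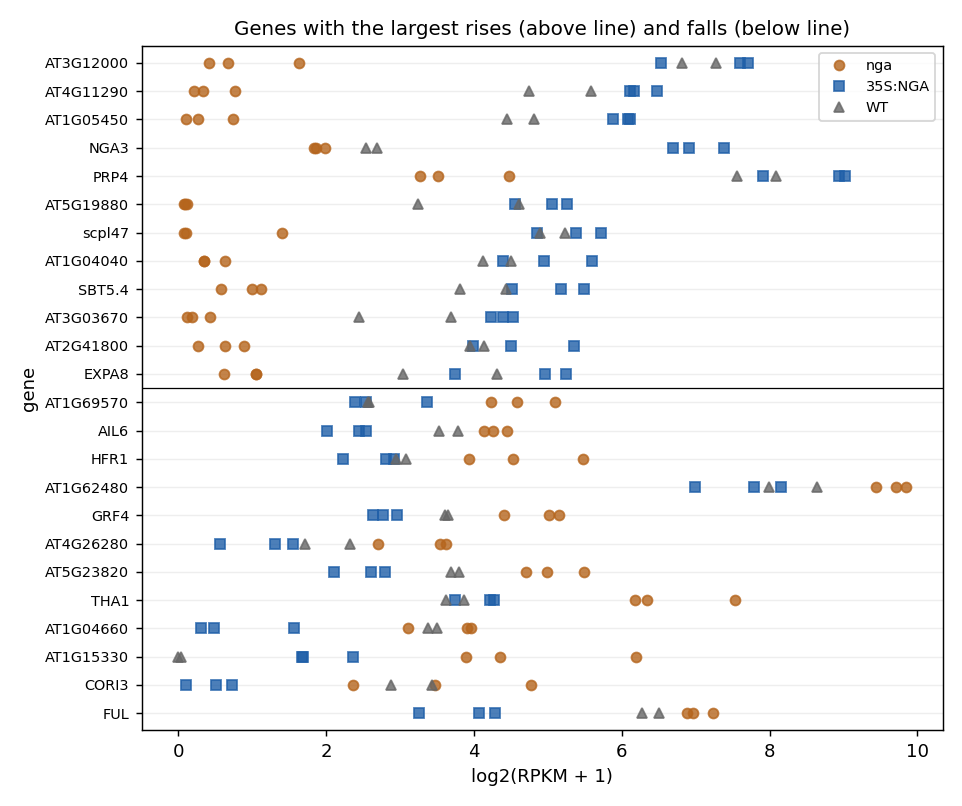
log2(RPKM + 1) of the 12 largest named rises, above the line, and the 12 largest named falls, below it, with a point for each library of nga, 35S:NGA and WT. WT lies on the side of 35S:NGA for most of the rises but not for NGA3, and lies close to nga for FUL and below both groups for AT1G15330.

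Among the falls, FUL had the largest difference of the named genes. FUL (AT5G60910, chromosome 5, 24502434 to 24506269) encodes a MADS-box factor that patterns the valves, the lateral walls of the ovary, and restricts the valve margin. Its level was 149, 123 and 116 RPKM in nga, only 18.5, 15.7 and 8.59 RPKM in 35S:NGA, and 89.5 and 76.3 RPKM in WT. The genotypes did not overlap, and 35S:NGA was far below both others. The difference was -3.15 ± 0.27 (limma, adjusted p = 0.00205), -3.61 in the lane 8 pair, and it was called without any single library. Of the 12 tested floral and ovule MADS-box genes FUL was the only one called. AT5G16030, with neither symbol nor description and so outside the naming rule, fell further, from 77.0, 68.3 and 65.1 RPKM in nga to 5.13, 3.97 and 2.58 in 35S:NGA (-3.89 ± 0.21, adjusted p = 0.000347).

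Growth and meristem regulators were also among the largest falls. GRF4, a growth-regulating factor that promotes cell proliferation, had 34.6, 31.2 and 20.3 RPKM in nga and 6.75, 5.83 and 5.19 in 35S:NGA (-2.07 ± 0.21, adjusted p = 0.0042). AIL6, an AINTEGUMENTA-like factor of flower meristems and young organs, had 20.8, 16.6 and 18.2 RPKM in nga and 4.80, 4.43 and 3.02 in 35S:NGA (-1.95 ± 0.18, adjusted p = 0.00284). Both kept their calls without any single library, and WT lay between the groups in each. In the lane 8 pair GRF4 differed by -1.78 and AIL6 by -2.26. In the list of TCP, GRF and organ growth regulators, 1 of 23 tested genes rose (4.35%) and 2 fell (8.7%), against 2.42% and 0.838% of all genes tested. The rise was TCP5 (1.19) and the second fall CYP78A5 (-0.94), and each of these 2 lost its call without any of 5 libraries, all but nga 3. TCP5 reached 1 RPKM in 35S:NGA alone. GIF1, the coactivator that binds GRF proteins, went from 264, 249 and 175 RPKM in nga to 113, 108 and 56.8 in 35S:NGA without passing the threshold (-1.34, adjusted p = 0.0625).

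Several falls were of genes whose level in nga exceeded WT or varied widely. AT1G15330, a cystathionine beta-synthase domain gene, had 19.4, 72.3 and 13.9 RPKM in nga, 4.13, 2.21 and 2.20 in 35S:NGA, and 0 and 0.0247 in WT. It was lowest in WT, and its call (-2.91 ± 0.56, adjusted p = 0.0426) was lost without nga 1 or any 1 of the 35S:NGA libraries. THA1, a threonine aldolase, had 80.3, 185 and 71.3 RPKM in nga and 12.3 to 18.3 in 35S:NGA (-2.61 ± 0.36, adjusted p = 0.0136), with 13.6 and 11.3 in WT, and lost its call without 35S:NGA 1 or 35S:NGA 2. HFR1, a bHLH protein of light signalling, had 22.1, 43.3 and 14.3 RPKM in nga and 3.69 to 6.56 in 35S:NGA (-1.99 ± 0.39, adjusted p = 0.0427), and was called only in the fit without nga 3 among those leaving out 1 library. All 3 genes were highest in nga 2, which also stood apart in clock genes, with CCA1 at 132 RPKM against 0.646 to 2.86 in the other 5 libraries. The dark-induced gene ASN1 was at 1210 RPKM in nga 2, against 489 and 291 in nga 1 and nga 3 and 47.9 to 137 in 35S:NGA. The part of these differences between libraries in the falls was not tested. None of 18 clock genes and none of 19 dark-induced genes was called (limma, adjusted p of CCA1 0.627 and of ASN1 0.071), although 18 of the 19 dark-induced genes were below 0, with a median of -0.76. CORI3, a cystine lyase induced by jasmonate, had 4.16, 10.2 and 26.4 RPKM in nga and 0.0746 to 0.661 in 35S:NGA (-3.09 ± 0.55, adjusted p = 0.0344), a call lost without nga 2 or any 1 of the 35S:NGA libraries.

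The list of style, stigma and transmitting tract regulators was chosen with earlier results of these data known. It had 19 members, all tested. Of these 8 rose (42.1%, against 2.42% of all genes tested) and none fell, with a median of 0.59. BEE1 (AT1G18400, chromosome 1, 6331398 to 6333856), a brassinosteroid-responsive bHLH gene with a role in the transmitting tract, had 5.48, 4.11 and 3.61 RPKM in nga and 23.8, 22.5 and 19.2 RPKM in 35S:NGA (2.09 ± 0.17, adjusted p = 0.00177). WT was at 17.5 and 16.0 RPKM, close under 35S:NGA. Its relative BEE3 rose by 1.96 ± 0.23 (adjusted p = 0.00798), a call lost without 35S:NGA 2. In the SHI/STY family, zinc-finger proteins that activate auxin synthesis genes in the style, SRS7 had 2.93, 3.33 and 3.82 RPKM in nga and 14.7, 16.3 and 11.7 RPKM in 35S:NGA (1.80 ± 0.16, adjusted p = 0.00284). STY2 had 3.50, 3.58 and 4.80 RPKM in nga and 18.9, 13.9 and 12 in 35S:NGA (1.67 ± 0.20, adjusted p = 0.00785). LRP1 (1.44) and SRS5 (1.31) were called as well, while STY1 (0.56, adjusted p = 0.288) and SHI (0.38, adjusted p = 0.388) were not and had groups that overlapped. HECATE genes promote growth of the transmitting tract and stigma. HEC1 had 2.23, 2.33 and 1.81 RPKM in nga and 7.4, 6.66 and 5.63 in 35S:NGA (1.27 ± 0.16, adjusted p = 0.00874), HEC3 differed by 0.98 ± 0.19 (adjusted p = 0.0461), and HEC2 by 0.35 (adjusted p = 0.371). SPT, the partner of HECATE proteins, went from 36.8 to 45.1 RPKM in nga to 53.4 to 67.4 in 35S:NGA without being called (0.59, adjusted p = 0.079). CRC, a YABBY factor of carpel and nectary growth, had the lowest difference of the list (-1.51, adjusted p = 0.0979). In the lane 8 pair the differences were 2.13 for BEE1, 1.40 for SRS7, 1.16 for STY2 and 1.24 for HEC1. The count of 8 was 3 without 35S:NGA 2, 5 without nga 1 or 35S:NGA 1, and 6 to 8 without each of the others. BEE1, SRS7 and STY2 were called without any single library. HEC1 lost its call without 35S:NGA 2, SRS5 without nga 1, 35S:NGA 1 or 35S:NGA 2, and LRP1 and HEC3 without any library but nga 3.

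The called genes of the KNOX, boundary and polarity list, also chosen with earlier results of these data known, were mostly falls. Of its 24 tested genes 5 fell (20.8%, against 0.838% of all genes tested), 1 rose and 18 were not called, with a median of -0.33. YABBY genes mark the outer, abaxial side of lateral organs, and 3 of them fell. YAB2 (AT1G08465, chromosome 1, 2675813 to 2679824) had 73.5, 73.5 and 45.1 RPKM in nga and 19.7, 16.8 and 13.7 RPKM in 35S:NGA (-1.85 ± 0.23, adjusted p = 0.00867). YAB3 had 28.2, 26.4 and 36.3 RPKM in nga and 11.8, 10.3 and 8.18 in 35S:NGA (-1.50 ± 0.18, adjusted p = 0.00798), and YAB5 had 7.62, 5.22 and 5.85 RPKM in nga against 1.53, 1.84 and 0.461 RPKM in 35S:NGA (-1.71 ± 0.28, adjusted p = 0.0238). WT placed them differently, with YAB2 between the groups at 35.4 and 35.9 RPKM, and the WT means of YAB3 and YAB5 above both, at 40.1 and 31.4 and at 11.5 and 11.1 RPKM. FIL, the closest relative of YAB3, had 55.4 to 87.2 RPKM in nga and 21.0 to 36.8 in 35S:NGA without being called (-1.14, adjusted p = 0.0644). STM, the KNOX gene that keeps meristem cells undifferentiated, fell from 40.9, 44.3 and 39.7 RPKM to 21.5, 23.1 and 19.7 RPKM (-0.93 ± 0.12, adjusted p = 0.0101), and AS1, a MYB repressor of KNOX genes, fell by 1.00. The KNOX gene KNAT1 (BREVIPEDICELLUS) rose, from 7.77, 6.65 and 7.88 RPKM in nga to 24.9, 24.2 and 18.6 RPKM in 35S:NGA (1.47 ± 0.15, adjusted p = 0.00424). In the lane 8 pair the differences were -1.65 for YAB2, -2.02 for YAB3, -2.23 for YAB5, -0.98 for STM and 1.14 for KNAT1. YAB2, YAB3 and KNAT1 were called without any single library. STM lost its call without nga 1, YAB5 without nga 1, nga 2, 35S:NGA 1 or 35S:NGA 2, and AS1 without nga 1 or any 1 of the 35S:NGA libraries, and the count of 5 falls was 2 without nga 1 and 3 without 35S:NGA 1 or 35S:NGA 2.

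**Figure D4:**
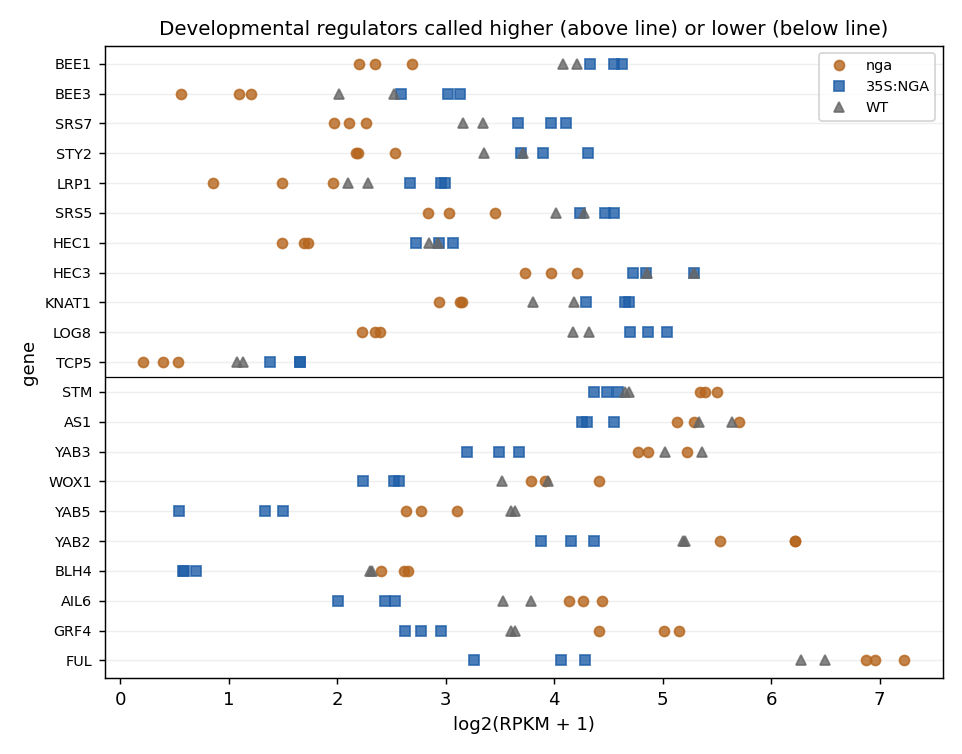
log2(RPKM + 1) of developmental regulators called higher in 35S:NGA, above the line, or lower, below it, with a point for each library of nga, 35S:NGA and WT. The genes shown were picked from those called, so that the groups are apart by choice, and WT lies near 35S:NGA for BEE1 and HEC1 but above both groups for YAB5.

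Among transcription factors found by description, the homeobox class had 3 rises (1.97%) and 6 falls (3.95%) in 152 tested, against 2.42% and 0.838% of all genes tested. That class is wider than homeobox genes, since its largest rise, AT2G40260, is described only as homeodomain-like. WRKY factors had 6 rises and no fall in 38 (15.8%). BLH4, a BEL1-like homeodomain protein that pairs with KNOX proteins, had 5.29, 4.30 and 5.14 RPKM in nga and 0.630, 0.497 and 0.506 in 35S:NGA (-1.93 ± 0.15, adjusted p = 0.00166). It thus reached 1 RPKM in nga alone. WOX1, a homeobox gene of lateral organ blade growth, fell by 1.59 ± 0.20 (adjusted p = 0.00874). Both kept their calls without any single library. WRKY47 had 0.586, 0.456 and 0.343 RPKM in nga and 8.52, 7.07 and 4.24 RPKM in 35S:NGA (2.34 ± 0.24, adjusted p = 0.00424). Of the 6 called WRKY genes 4 reached 1 RPKM in 35S:NGA alone. MYB factors had 5 rises (6.67%) and 1 fall (1.33%) in 75, and 4 of the 5 rises reached 1 RPKM in 35S:NGA alone. MYB4, a repressor of phenylpropanoid genes, had 7.64, 1.22 and 2.79 RPKM in nga and 36.4, 38.8 and 31.8 in 35S:NGA (3.13 ± 0.44, adjusted p = 0.0149), with WT at 38.7 and 35.0 RPKM, and lost its call without 35S:NGA 1 or 35S:NGA 2. MYB24, known for stamen maturation under jasmonate, had 0.105 to 0.821 RPKM in nga and 5.10 to 6.58 RPKM in 35S:NGA (2.31 ± 0.23, adjusted p = 0.00377). Leaving out 1 library moved these counts. WRKY rises were 3 without 35S:NGA 1 or 35S:NGA 2 and 4 without nga 1 or nga 2. The homeobox class had 1 rise and 2 falls without nga 1, 1 rise and 3 falls without 35S:NGA 1 or 35S:NGA 2, 1 rise and 4 falls without nga 2, and 6 rises and 7 falls without nga 3. MYB rises were 2 without 35S:NGA 1 or 35S:NGA 2 and 3 without nga 1, nga 2 or 35S:NGA 3. MADS-box and NAC factors each had 1 call, in 33 (3.03%) and 47 (2.13%) tested genes, against 3.26% of all genes tested.

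Hormone lists held few calls in number, but most had a share above the 3.26% of all genes tested. It was 16.7% for auxin synthesis and transport and 16.7% for salicylate and defence. For cytokinin it was 5.88% and for jasmonate 5.26%, each resting on 1 call. Of the rises in the auxin and salicylate lists, WAG2 and PR5 reached 1 RPKM in 35S:NGA alone. Both could thus enter the test only through the group in which they were high. LOG8, an enzyme that releases active cytokinin, had 4.09, 3.69 and 4.27 RPKM in nga and 32.0, 28.1 and 25.0 RPKM in 35S:NGA (2.54 ± 0.14, adjusted p = 0.000347), with WT at 19.0 and 17.0 and a difference of 2.31 in the lane 8 pair. It was the only call in 17 tested cytokinin genes, whose median was -0.52, and all 8 type-A response regulators tested were below 0 without being called. In the list of auxin synthesis and transport, 2 of 18 genes rose and 1 fell. WAG2, a kinase acting on auxin carriers, rose by 1.19 ± 0.15 (adjusted p = 0.0103) and the carrier PIN3 by 0.89 ± 0.16 (adjusted p = 0.0378), while TAR2, an aminotransferase of auxin synthesis, fell by 0.96 ± 0.19 (adjusted p = 0.0427). TAA1, which catalyses the same step as TAR2, had 28.6, 17.4 and 32.3 RPKM in nga and 52.1, 74.9 and 51.1 in 35S:NGA (1.18, adjusted p = 0.0623), and YUC4, which acts at the next step, differed by 0.97 (adjusted p = 0.0556). WAG2 lost its call without nga 1 or 35S:NGA 2, and PIN3 and TAR2 lost theirs without 5 of the 6 libraries, all but nga 3 for PIN3 and all but nga 2 for TAR2. None of 13 gibberellin genes was called, and of 19 jasmonate genes JAZ1 alone was (0.87, adjusted p = 0.0179), which did not hold without nga 1, nga 2, 35S:NGA 1 or 35S:NGA 2. Of 12 salicylate and defence genes 2 rose. PR5, a thaumatin-like protein, had 0.697, 0.453 and 0.642 RPKM in nga and 15.8, 25.1 and 10.7 in 35S:NGA (3.44 ± 0.28, adjusted p = 0.00187). With WT at 15.5 in both libraries, it was nga that stood apart. NIMIN1 rose by 1.60 ± 0.24 (adjusted p = 0.0185), a call lost without nga 2 or any 1 of the 35S:NGA libraries.

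Further classes found by description had rises above the share of all genes tested, of which 2.42% rose and 0.838% fell. Cytochrome P450 genes had 12 rises (11.9%) and 2 falls (1.98%) in 101, and serine carboxypeptidase-like genes 4 rises (13.8%) and 1 fall (3.45%) in 29. Genes with late embryogenesis abundant in their description had 3 rises in 33 (9.09%) and amino acid transporters 3 in 35 (8.57%). The former include AT1G65690, described as of a hydroxyproline-rich glycoprotein family. Of the rises in these 4 classes, 5 of cytochrome P450 genes, 1 serine carboxypeptidase-like and 1 late embryogenesis abundant reached 1 RPKM in 35S:NGA alone. GASA peptides, a small class of secreted cysteine-rich peptides, had 2 rises in 5 tested (40%). These counts also moved with single libraries. Rises of cytochrome P450 genes ran from 5 without 35S:NGA 2 to 16 without nga 3, and those of serine carboxypeptidase-like genes from 1, without nga 1, nga 2, 35S:NGA 1 or 35S:NGA 2, to 7 without nga 3. The late embryogenesis abundant class had 0 rises without nga 1 or nga 2, 1 without 35S:NGA 1 and 6 without nga 3. Amino acid transporters had 0 without nga 1, 35S:NGA 1 or 35S:NGA 2 and 1 without nga 2 or 35S:NGA 3. GASA peptides had 1 without any of the libraries but nga 3, and 2 without nga 3. No gene was called among 17 cold, drought and abscisic acid genes, 9 tested glucosinolate genes, 6 NGATHA-like and RAV genes, 40 histones, 21 kinesins and 72 photosystem and chlorophyll-binding proteins. All 9 glucosinolate genes were below 0, with the indole branch enzyme CYP79B3 at -2.53 (adjusted p = 0.0633). Ribosomal proteins had 4 falls in 300 (1.33%), and receptor and leucine-rich repeat kinases 2 rises (1.69%) and 1 fall (0.847%) in 118. CYCD3;2, a D-type cyclin, was the only call among 21 replication and cell cycle genes, from 339, 363 and 260 RPKM in nga to 179, 124 and 136 in 35S:NGA (-1.13 ± 0.20, adjusted p = 0.0344), and was lost without any library but nga 3.

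**Figure D5:**
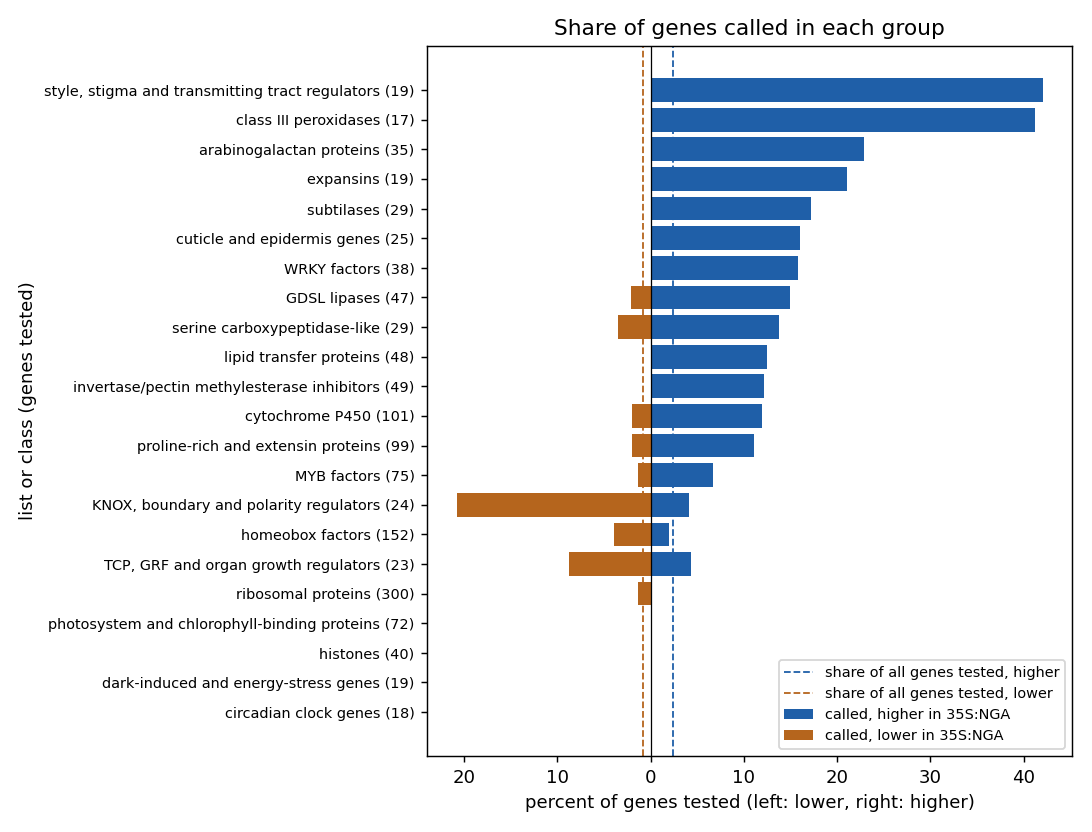
Bars give the percent of tested genes called higher (right) or lower (left) in 35S:NGA for chosen lists and description classes, with the number tested in brackets, and dashed lines mark the 2.42% and 0.838% of all genes tested. The style list, at 42.1%, and the peroxidases, at 41.2%, have the longest bars to the right, and the KNOX, boundary and polarity list, at 20.8%, the longest to the left. The lists and classes were chosen with earlier results of these data known.

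Markers of other tissues were compared beside these counts. Carpel markers summed to 421 to 514 RPKM in nga and 275 to 339 RPKM in 35S:NGA, and none of the 7 was at 0 in any library. FUL, the only one called, is part of these sums, with 116 to 149 RPKM in nga and 8.59 to 18.5 in 35S:NGA. Of the 7 differences 3 were above 0, with a median of -0.13, so the lower sums do not describe the markers as a set. None of 9 tested pollen markers was called, all 9 were above 0 with a median of 0.49, and their sum ran from 115 to 191 RPKM in nga and from 96.3 to 325 RPKM in 35S:NGA. Of 11 tapetum and microspore markers 4 were tested and none was called, with sums of 30.3 to 54.7 RPKM in nga and 24.8 to 32.7 in 35S:NGA. Green tissue markers, 14 tested and none called, summed to 4789 to 5238 RPKM in 4 of the libraries, but to 9097 RPKM in nga 2 and 10949 RPKM in 35S:NGA 3. The sum of 5 ovule markers was 85.0 to 110 RPKM in nga and 67.2 to 87.8 in 35S:NGA. The part of these differences in the called genes was not tested.

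The WT libraries, which entered no test here, showed where each called gene lay between the lines. In 262 of the 428 raised genes (61.2%) the WT mean lay between the groups and nearer to 35S:NGA, in 90 between and nearer to nga, in 60 above both and in 16 below both. For the 148 lowered genes it lay between and nearer to 35S:NGA in 58, between and nearer to nga in 46, below both in 29 and above both in 15. Over all genes tested, 14.6% had WT between the groups nearer to 35S:NGA and 9.83% nearer to nga, 36.6% had it above both and 39.0% below both. Called genes were selected for groups far apart, which leaves more room for WT between them. Their shares are therefore not like for like with those of all genes tested. Among the falls, BLH4 and FUL had WT nearer to nga, while GRF4 and STM had it nearer to 35S:NGA.

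Promoters were searched for CACTTG, a hexamer known to be bound by the B3 domain of NGA1, and for CACCTG, the word bound by the B3 domain of RAV1, on both strands of the 250 bases before each annotated gene start in TAIR10.1. CACTTG was found in 9.27% of 17598 promoters of tested genes, in 9.11% of those of raised genes and in 11.5% of those of lowered genes. CACCTG was found in 2.49%, 0.935% and 2.70%. The 12 largest rises held neither word. CACTTG was thus present among called genes at about its general rate, and CACCTG in 4 of the 428 promoters of raised genes. A match is a description of the letters, not a bound site. Of the 88 named genes 12 held CACTTG. The members of the gene lists among them are shown, 5′ to 3′ on the gene's strand and with the match in capitals, because both directions of change occur. They are BEE1 (chr1:6331148-6331397, plus strand) and CYP86A4 (chr1:218584-218833, plus strand), both raised, and YAB2 (chr1:2675563-2675812, plus strand) and AS1 (chr2:15783481-15783730, minus strand), both lowered. The match begins 144, 246, 21 and 73 bases before the gene start in that order.
BEE1: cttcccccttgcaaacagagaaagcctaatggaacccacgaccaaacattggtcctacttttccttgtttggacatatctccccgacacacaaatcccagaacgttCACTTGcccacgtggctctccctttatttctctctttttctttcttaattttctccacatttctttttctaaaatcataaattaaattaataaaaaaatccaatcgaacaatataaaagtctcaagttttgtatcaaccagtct
CYP86A4: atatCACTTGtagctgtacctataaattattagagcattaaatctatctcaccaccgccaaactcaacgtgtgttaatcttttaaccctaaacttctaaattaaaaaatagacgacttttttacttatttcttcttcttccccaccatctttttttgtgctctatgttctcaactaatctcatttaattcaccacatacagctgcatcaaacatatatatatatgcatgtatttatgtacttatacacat
YAB2: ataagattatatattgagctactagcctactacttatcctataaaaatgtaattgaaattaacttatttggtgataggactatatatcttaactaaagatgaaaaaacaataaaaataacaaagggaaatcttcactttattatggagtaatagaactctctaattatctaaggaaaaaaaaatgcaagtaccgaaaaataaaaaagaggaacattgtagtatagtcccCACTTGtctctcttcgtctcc
AS1: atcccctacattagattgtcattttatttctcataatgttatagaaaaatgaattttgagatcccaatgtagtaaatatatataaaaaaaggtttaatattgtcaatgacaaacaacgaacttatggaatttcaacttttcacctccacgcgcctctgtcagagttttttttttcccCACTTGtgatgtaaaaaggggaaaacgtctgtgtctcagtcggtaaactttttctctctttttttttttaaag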

How the data were processed

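RNA of hand-picked carpels was sequenced on an Illumina HiSeq2000 after TruSeq library preparation, per the labels' protocols. The authors deposited RPKM, with decimal commas, for 33590 entries per library, and the submitters' processing notes name FastQC and TAIR10. The aligner, the counting program and the use of strand are not stated in any source available to this work. Entries left out were 6374 that lack a gene model, each at 0, 1 that is malformed, and 18 that list 9 loci repeatedly. The RPKM were used as log2(RPKM + 1), with genes kept at 1 RPKM or more in at least 2 of the 6 libraries. As the deposited values are not counts, limma 3.58.1 (R 4.3.3) was fitted, with its trend option, to nga and 35S:NGA alone. The fit was tested on simulated data of 17666 genes for this comparison, where 54% of genes changed 2-fold and 80% of those changed 4-fold were called, and 9 of 143 calls were false. Changes were placed only in genes with a mean above the level of 5 RPKM, and the noise was independent and normal, without a lane effect. In the data lane is tied to genotype, and 136 of the 428 rises had a mean under 1 RPKM in nga. These rates therefore need not carry over to the calls.

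The members, lists and classes were chosen with earlier results of these data known. Named genes, 88 in all, were the 4 NGATHA genes, the 12 with the largest change in each direction among called genes reaching a group mean of 5 RPKM, no overlap and a symbol or description, up to 2 called genes per direction in each list, and up to 1 in each class with at least 10 tested genes. Other genes were named after their values were seen, among them YAB5, STM, WOX1, MYB24, ASN1, CCA1, EXPA10 and genes named as not called. There were 23 lists with 367 genes and 48 classes found by words in the authors' descriptions, and a gene can be in several. Coordinates and promoters are from RefSeq's TAIR10.1. Alternatives changed the scaling, filter, pseudocount, libraries fitted, replicate block, lane, fold threshold and trend. Python 3.11.15, pandas 2.3.3, numpy 2.4.6 and matplotlib 3.10.9 were used. Reads were not used here.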

Additional observations from a re-analysis of the deposited data

How the results depend on the processing

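No named gene changed direction under any alternative. For the 86 that were called, whose groups do not overlap, this was fixed in advance except where the scaling was changed. The 576 calls (428 higher, 148 lower), the 180 calls in lists and classes and the 86 called named genes moved by more than 1.5 times as follows. With all 8 libraries in the fit there were 947 calls, 656 higher and 291 lower, and 272 in lists and classes. With lane as a term there were 21 (18 and 3), 11 in lists and classes and 9 named genes. With a filter at a mean of 5 RPKM there were 337 (239 and 98) among fewer genes tested, and 102 in lists and classes. With the requirement of at least 2-fold, 77 were lower. With the replicate number as a block there were 249 (207 and 42), 87 in lists and classes and 47 named genes. The correlation of deviations between same-numbered libraries was 0.10, -0.16 and 0.24, and not every library correlated best with its own number. The pair numbered 3 also shares lane 8, while the other pairs share only a number. Leaving out 1 library gave 163 to 1203 calls, 138 to 840 higher and 25 to 363 lower, 61 to 308 in lists and classes and 40 to 82 named genes, of which 36 kept their call each time. A fit without 1 library leaves 2 in a group. Apart from the fits with fewer genes or libraries, the cause of these differences was not tested.

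Quantile normalization (363 higher, 178 lower), equal library medians, no filter, pseudocounts of 0.1 and 5, the fit without a trend and the fit without the lane 8 libraries stayed within 1.5 times for all of these counts. At this number of libraries a missed call does not show that a gene was unchanged, and levels under 1 RPKM rest on few reads.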
